A study of Mus musculus with 11 samples.

Results

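The matrix of hyaline cartilage is built from fibrillar collagens and from a set of other secreted proteins, and 10 genes of the second kind were followed here in otospheres, in the cochlear sensory epithelium (CSE) and in embryonic stem cells (ESCs, ES). They were chosen by name: chondromodulin (Cnmd, listed on older arrays as Lect1), aggrecan (Acan), the matrilins Matn1, Matn2, Matn3 and Matn4, link protein (Hapln1), Comp, Chad and Ucma. They are 10 of the 20280 genes that could be named on the array, and 11 of its 55681 probes measured them, with 2 probes for Matn4 and 1 for each of the others. All 11 probes passed the filter on dim probes, that of Matn3 on the ESC arrays alone.

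The CSE was dissected from ICR mice at postnatal day 1, with 10 mice and 20 cochleae pooled per preparation. Otospheres (OS) are floating spheres grown from the dissociated CSE of such mice, cultured for 4 to 5 days, passaged 1 time, cultured for 4 to 5 days again and strained to keep the solid spheres. The ESCs were the lines G4-2 (ES1) and D3 (ES2), both at passage 13 and grown without feeder cells in medium with serum and LIF, so each line gave 1 array. The RNA was measured on 11 one-colour arrays on 2 slides, of which 6 held otospheres, 3 CSE and 2 ESCs. Slide 1 carried ES1, OS1 to OS3, CSE1 and CSE2, and slide 2 carried ES2, OS4 to OS6 and CSE3.

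The levels below are background-corrected, quantile-normalized log2 signals. OS1 and OS2 differed by 0.997 times the noise between spots of the same probe among probes with a mean log2 signal above 10, and OS4 and OS5 by 0.452 times, against at least 1.76 times for every other pair within a group. For OS1 and OS2 the ratio ran from 1.14 among probes above a log2 signal of 6 to 0.968 above 11. With the noise taken from a wider set of repeated probes it was 1.04, so OS1 and OS2 differed by about the noise and not clearly by less. Each of these pairs was therefore counted as 1 sample, which leaves 4 otosphere, 3 CSE and 2 ESC samples. Otosphere values are given in the order OS1/OS2, OS3, OS4/OS5 and OS6. On the arrays, 55.1% to 71.6% of 59305 spots were well above background and no spot was saturated. The labels do not say which preparations were independent, so the p-values measure the spread between these samples, which may be partly technical. As these are bulk samples, fewer cells of a type and less RNA per cell cannot be told apart. The 3 comparisons share samples and are given side by side.

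Cartilage owes its stiffness to aggrecan, a proteoglycan loaded with chondroitin sulphate chains that is tied to hyaluronan by link protein and held within a collagen network. Matrilins, Comp and Chad are smaller proteins that connect these networks to each other or to cells, chondromodulin keeps the tissue free of blood vessels, and Ucma is a Gla-rich protein of chondrocytes. In the cochlea, cartilage collagens also form part of the tectorial and basilar membranes, next to the sensory epithelium, and cartilage surrounds the developing organ as the otic capsule.

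RefSeq promoter sequences were held for 8 of the 10 genes. The 250 bases before the annotated start are printed for Matn4, whose level differed between otospheres and CSE, for Matn1 and Ucma, which were both brighter in the slide 2 than in the slide 1 otosphere samples, and for Chad. They lie in the GRCm38.p6 build at chr2:164405161-164405410 on the minus strand (Matn4, the outer of 2 starts), chr4:130944135-130944384 on the plus strand (Matn1), chr2:4975872-4976121 on the plus strand (Ucma) and chr11:94564797-94565046 on the plus strand (Chad), and each is written 5′ to 3′ in the direction of its gene.
Matn4: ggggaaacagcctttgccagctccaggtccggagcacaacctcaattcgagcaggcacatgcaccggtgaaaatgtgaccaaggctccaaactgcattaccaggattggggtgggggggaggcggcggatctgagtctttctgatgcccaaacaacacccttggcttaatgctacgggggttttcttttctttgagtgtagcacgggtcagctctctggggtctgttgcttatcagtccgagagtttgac
Matn1: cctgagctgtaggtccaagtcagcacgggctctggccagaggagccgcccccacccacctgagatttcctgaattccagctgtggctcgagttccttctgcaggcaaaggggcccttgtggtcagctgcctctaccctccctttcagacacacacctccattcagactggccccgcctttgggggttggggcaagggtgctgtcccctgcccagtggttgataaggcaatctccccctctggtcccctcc
Ucma: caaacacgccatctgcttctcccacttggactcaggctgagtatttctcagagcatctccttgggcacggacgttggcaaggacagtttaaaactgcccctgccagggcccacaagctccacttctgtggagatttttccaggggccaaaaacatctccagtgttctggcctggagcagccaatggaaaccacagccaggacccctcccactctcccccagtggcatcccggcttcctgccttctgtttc
Chad: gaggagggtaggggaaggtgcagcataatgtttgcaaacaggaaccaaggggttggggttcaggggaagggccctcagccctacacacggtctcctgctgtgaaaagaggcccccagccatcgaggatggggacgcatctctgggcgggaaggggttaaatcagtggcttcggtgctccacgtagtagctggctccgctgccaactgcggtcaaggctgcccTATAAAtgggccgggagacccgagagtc
The capitals in the Chad sequence mark the letters TATAAA on the gene's strand, 28 bases before the start, which 7.59% of 32851 such windows hold and which no other window of the 8 genes holds. The hexamers ACAAAG and AACAAT, which SOX proteins can bind, were searched on both strands. At least one of them lies in 24% of all windows and in none of the windows of the 8 genes.

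Over the 3 groups, the 10 genes fell into sets with different patterns. Cnmd was as bright in otospheres as in CSE and not above background in ESCs, Matn4 was brightest in CSE, and Acan, Matn3 and Comp were brighter in ESCs than in either cochlear group. Matn1, Ucma and Matn2 varied among the otosphere samples more than between the group means of otospheres and ESCs or CSE, and Hapln1 and Chad passed no pairwise test in the main model. In limma's F-test over the 3 groups, 6 of the 10 genes passed a Benjamini-Hochberg adjusted p of 0.05 (Cnmd, Acan, Matn3, Matn4, Comp and Ucma), where 33.8% of the 47997 kept probes did. Matn3 was among the tested probes through the ESC arrays alone. Each probe's signal is compared with itself across samples and not with another gene's.

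**Figure D1:**
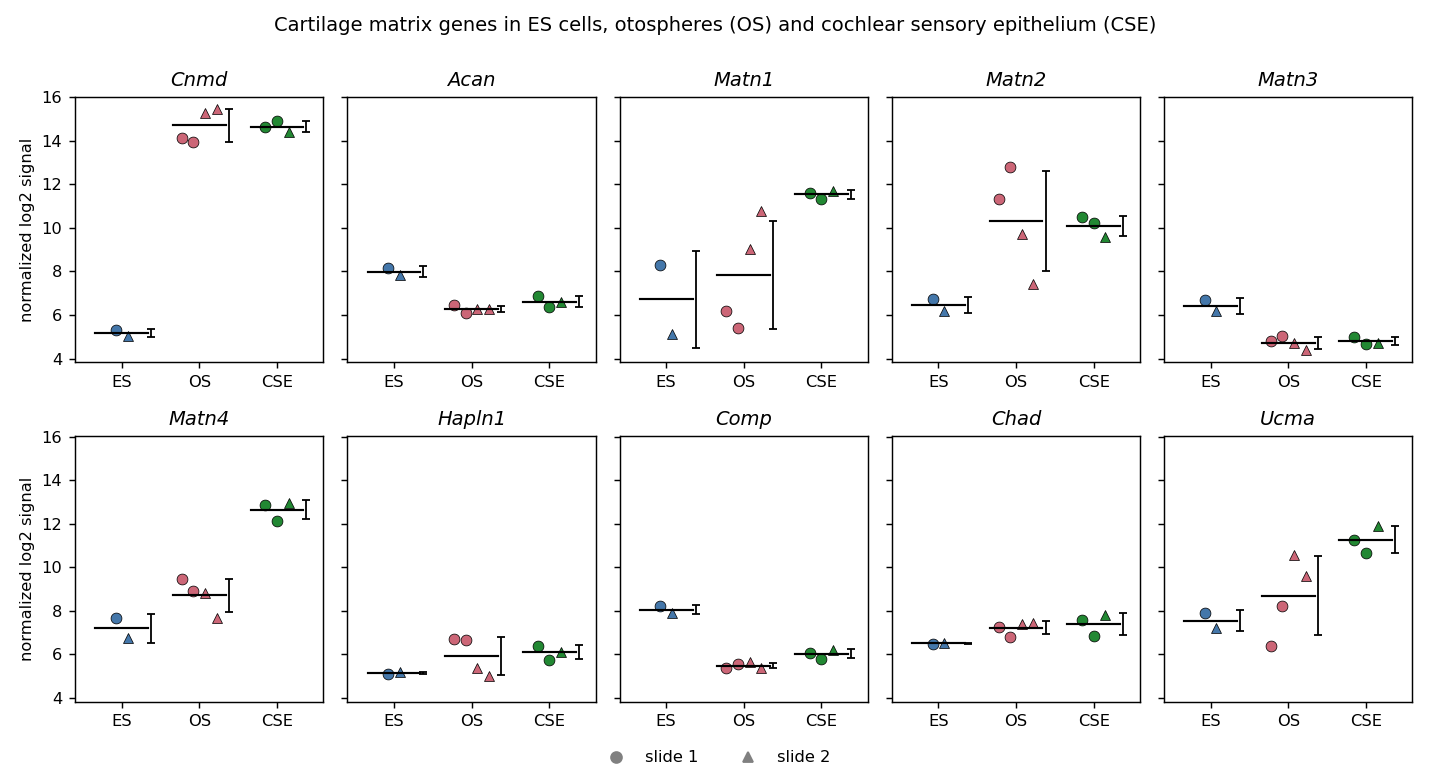
Normalized log2 signal (vertical axis) of the 10 genes in ESC (ES), otosphere (OS) and CSE samples (horizontal axis). Each point is a sample, with circles for slide 1 and triangles for slide 2, black lines mark the mean and bars the SD. Cnmd is high in all otosphere and CSE samples, and the otosphere points of Matn1, Matn2 and Ucma are spread over more than 4 log2 units.

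Cnmd encodes chondromodulin, a membrane-anchored precursor that releases a glycoprotein known for holding off blood vessels. Its log2 signal was 14.15, 13.96, 15.26 and 15.47 in the otosphere samples, 14.64, 14.90 and 14.41 in CSE and 5.32 and 5.05 in ESCs. The otosphere samples lay on both sides of the CSE samples, and neither ESC array had the probe well above background. Cnmd was therefore at least 626-fold higher in otospheres than in ESCs (limma, adjusted p = 2.17e-06) and at least 599-fold higher in CSE (adjusted p = 2.85e-06). Otospheres and CSE differed by 0.06 ± 0.38 (log2 difference ± SE, adjusted p = 0.969), with a 95% interval of -0.79 to 0.92, so differences of up to about that size were not detectable. On slide 1 alone the difference was -0.71 and on slide 2 alone 0.96, and neither passed the test (adjusted p = 0.199 and 0.0928). The study had named this gene for its high signal in both cochlear groups, so its place here is no independent evidence of that pattern.

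The relative of chondromodulin in tendon, tenomodulin (Tnmd), did not share this pattern. Its probe was well above background on none of the 6 otosphere arrays and on 2 of the 3 CSE arrays, with log2 signals of 4.93, 4.79, 4.85 and 4.79 in otospheres and 6.36, 6.02 and 5.98 in CSE. No otosphere sample reached the CSE samples, and Tnmd was at least 2.17-fold lower in otospheres than in CSE (limma, adjusted p = 0.00104). No ESC array had it well above background, so it may have passed the filter on dim probes only through CSE.

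Aggrecan and link protein together bind hyaluronan. Their probes gave low signals in the cochlear samples, which need not mean few transcripts, and Acan was well above background on all 11 arrays. Acan was at 6.45, 6.07, 6.27 and 6.30 in otospheres, 6.87, 6.38 and 6.58 in CSE and 8.17 and 7.81 in ESCs. Both ESC samples lay above all others. Relative to ESCs, Acan was lower by a log2 difference of -1.72 ± 0.20 in otospheres (limma, adjusted p = 3.6e-04) and -1.38 ± 0.22 in CSE (adjusted p = 0.00145). Otospheres and CSE overlapped, and their difference of -0.34 (95% interval -0.75 to 0.07) did not pass the test (adjusted p = 0.336).

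Hapln1 was at 6.70, 6.67, 5.39 and 5.00 in otospheres, 6.39, 5.74 and 6.13 in CSE and 5.09 and 5.17 in ESCs, where it was not well above background on either array. It was well above background on 5 of the 6 otosphere arrays, all but OS6. The CSE samples lay between the brighter and the dimmer otosphere samples. No comparison passed limma's test in the main model, although otospheres against ESCs passed on slide 1 alone (1.59, adjusted p = 0.0455) and both cochlear groups did with the replicate block. Otospheres and CSE differed by -0.15 (95% interval -1.12 to 0.82, limma, adjusted p = 0.921). With ESCs set at their bound, the mean was 1.47-fold higher in otospheres (adjusted p = 0.268) and 1.63-fold higher in CSE (adjusted p = 0.209). These are no minimum folds, as the 95% intervals of the log2 differences (-0.3 to 1.9 and -0.2 to 2.1) spanned both directions. OS6 lay below both ESC samples.

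The matrilins are adaptor proteins with von Willebrand factor A domains. Matn1 and Matn3 are known from cartilage, whereas Matn2 and Matn4 occur in many loose connective tissues too. The 4 genes had 4 different patterns over the 3 groups.

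Matn4 was the only one of the 10 genes that passed the test between otospheres and CSE. Its log2 signal was 9.46, 8.93, 8.81 and 7.67 in otospheres (8.72 ± 0.75, mean ± SD, n = 4), 12.88, 12.13 and 12.93 in CSE (12.65 ± 0.45, n = 3) and 7.66 and 6.73 in ESCs. The highest otosphere sample was more than 2 log2 units below the lowest CSE sample. The log2 difference was -3.93 ± 0.43 (limma, adjusted p = 7.43e-04), or 15.2-fold lower in otospheres than in CSE, and in CSE Matn4 was 43.8-fold higher than in ESCs (adjusted p = 1.05e-04).

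The second Matn4 probe gave 6.85, 6.04, 6.90 and 5.88 in otospheres, 9.60, 8.67 and 9.50 in CSE and 5.32 and 5.29 in ESCs. It also put every otosphere sample under every CSE sample, with a log2 difference of -2.84 ± 0.33 (limma, adjusted p = 9.58e-04). The probes parted over otospheres against ESCs. The first was higher in otospheres by 1.52 ± 0.49 (adjusted p = 0.0458), a call that was lost without ES2, CSE1, CSE3, OS3, the OS1/OS2 sample or the OS4/OS5 sample (adjusted p = 0.0646 to 0.279). The second, not well above background on either ESC array, was at least 2-fold higher, and its adjusted p of 0.0532 did not pass. Between otospheres and CSE, the first probe kept its direction within each slide, with a log2 difference of -3.31 on slide 1 (adjusted p = 0.0175) and -4.69 on slide 2 (adjusted p = 0.0215).

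Matn1 was at 6.17, 5.41, 9.02 and 10.76 in otospheres, 11.62, 11.31 and 11.69 in CSE and 8.29 and 5.14 in ESCs. It was not well above background on OS3 and ES2. Every otosphere sample was dimmer than every CSE sample, but the otosphere samples spanned 5.35 log2 units, and the difference of -3.70 ± 1.26 did not pass the test (limma, adjusted p = 0.108). On slide 1 alone the difference was -5.68 (adjusted p = 0.00665), and on slide 2 alone it was -1.80 (adjusted p = 0.236). Without OS6 it was -4.67 and passed (adjusted p = 0.0278). In CSE, Matn1 was 28.4-fold higher than in ESCs (adjusted p = 0.0404), a call that was lost without ES2, CSE1, CSE2, CSE3 or the OS4/OS5 sample (adjusted p = 0.252, 0.0945, 0.0773, 0.0933 and 0.0532) and with the processed signal scaled to the 75th percentile (0.0773). The log2 difference of 4.83 was 6.40 without ES1 and 3.25 without ES2. Against ESCs, the otosphere samples were at -2.50 on slide 1 alone (adjusted p = 0.0207) and at 4.75 on slide 2 alone (adjusted p = 0.0133), with 1 ESC array on each slide.

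Matn2 ran the other way among the otosphere samples. It was at 11.32, 12.81, 9.72 and 7.44 in otospheres, 10.48, 10.22 and 9.57 in CSE and 6.73 and 6.19 in ESCs. OS1/OS2 and OS3 lay above all CSE samples and OS6 below all of them, so the mean difference of 0.23 had a 95% interval of -2.15 to 2.62 (limma, adjusted p = 0.956). Matn2 was higher in otospheres than in ESCs by 3.86 ± 1.19 (adjusted p = 0.0401), and in CSE it was 3.63 ± 1.26 higher without passing (adjusted p = 0.0601). The CSE difference passed in 10 of 26 alternatives, among them slide as a block (3.30, adjusted p = 0.0322), an offset of 0 (adjusted p = 0.0446) and without OS3 (adjusted p = 0.0225) or OS6 (adjusted p = 0.00894). The call against ESCs was lost without ES1, ES2, CSE1, CSE2, CSE3, the OS1/OS2 sample or the OS4/OS5 sample, with adjusted p-values of 0.0554 to 0.167, with an offset of 50 (0.0594) and on slide 2 alone (0.147).

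Matn3 was well above background on the 2 ESC arrays and on no otosphere or CSE array. Its log2 signal was 6.68 and 6.16 in ESCs, 4.38 to 5.02 in otospheres and 4.67 to 4.99 in CSE. It was at least 2.58-fold lower in otospheres than in ESCs (limma, adjusted p = 8.23e-04) and at least 2.47-fold lower in CSE (adjusted p = 0.00131). Its probe passed the filter on dim probes on the ESC arrays alone, where it was bright. These calls are therefore no support apart from that selection. With no filter, limma's adjusted p-values were 8.41e-04 and 0.00132. Both cochlear groups gave only a bound, so no level is compared between them.

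Comp and Chad link collagens to other matrix proteins and to cells. Comp, a member of the thrombospondin family, was at 5.36, 5.55, 5.64 and 5.38 in otospheres, 6.06, 5.79 and 6.21 in CSE and 8.20 and 7.91 in ESCs. It was well above background on 2 of the 6 otosphere arrays, OS4 and OS5. Comp was lower than in ESCs by a log2 difference of -2.57 ± 0.19 in otospheres (limma, adjusted p = 2.9e-05) and -2.03 ± 0.20 in CSE (adjusted p = 1.29e-04). Every otosphere sample was dimmer than every CSE sample, but the difference of -0.54 ± 0.17 did not pass (adjusted p = 0.0789). With the processed signal scaled to the 75th percentile it was -1.85 and passed (adjusted p = 0.0227), and the difference between otospheres and ESCs was -4.44. It also passed where each array counted as its own sample (-0.53, adjusted p = 0.0412).

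Chad encodes chondroadherin, a leucine-rich repeat protein of cartilage. Its log2 signal was 7.27, 6.79, 7.39 and 7.42 in otospheres, 7.55, 6.85 and 7.81 in CSE and 6.49 and 6.50 in ESCs. All otosphere and CSE samples lay above both ESC samples, yet neither difference passed limma's test (0.72, adjusted p = 0.102, and 0.90, adjusted p = 0.0546). The difference of CSE passed in 6 of 26 alternatives, among them without CSE2 (1.18, adjusted p = 0.012), without OS3 (adjusted p = 0.0425) and with a slide term in the model (0.96, adjusted p = 0.0294), and that of otospheres in 3, without CSE2 (adjusted p = 0.0453) among them. Otospheres and CSE overlapped, with a difference of -0.19 (95% interval -0.76 to 0.39, adjusted p = 0.799).

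Ucma was at 6.39, 8.20, 10.58 and 9.58 in otospheres, 11.23, 10.67 and 11.91 in CSE and 7.90 and 7.20 in ESCs. As with Matn1, the OS4/OS5 and OS6 samples were the brighter otosphere samples, and all 4 lay below the CSE samples. The difference from CSE was -2.58 ± 0.86 and did not pass (limma, adjusted p = 0.1), although with slide as a block it was -2.82 and passed (adjusted p = 0.0434), as it did without the OS4/OS5 sample (-3.22, adjusted p = 0.0404). Within slide 1 it was -3.66 (adjusted p = 0.054) and within slide 2 -1.83 (adjusted p = 0.0976). Ucma was 13.2-fold higher in CSE than in ESCs (limma, adjusted p = 0.0244), a call that was lost in 5 of 26 alternatives. Among them were those without ES1, ES2, CSE1 or CSE3, with adjusted p-values of 0.0671, 0.119, 0.0614 and 0.0743. On slide 1 alone, with 1 ESC array, the log2 difference was 3.05. In otospheres the difference from ESCs was 1.13 ± 0.97 (adjusted p = 0.449).

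Counted over the 10 genes, 1 passed limma's threshold of 0.05 as lower in otospheres than in CSE and 0 passed it as higher, where 6.19% of all kept probes were lower and 4.84% higher. Against ESCs, otospheres had 3 genes higher (Cnmd, Matn2 and Matn4) and 3 lower (Acan, Matn3 and Comp), beside 12.1% and 15.6% of all kept probes. CSE had 4 genes higher than ESCs (Cnmd, Matn1, Matn4 and Ucma), beside 13.2% of all kept probes, and the same 3 lower, beside 15.6%. Matn3 entered these counts through the ESC arrays alone. For 4 of the 10 genes (Matn1, Matn4, Comp and Ucma) no otosphere sample reached the dimmest CSE sample, as for 12.7% of all kept probes. The median log2 difference of the 10 genes was -0.26 for otospheres minus CSE, 0.97 for otospheres minus ESCs and 2.29 for CSE minus ESCs, against 0.02, -0.03 and -0.06 over all kept probes. With genes not above background in ESCs at their bound, the medians against ESCs were 0.92 for otospheres and 2.27 for CSE.

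**Figure D2:**
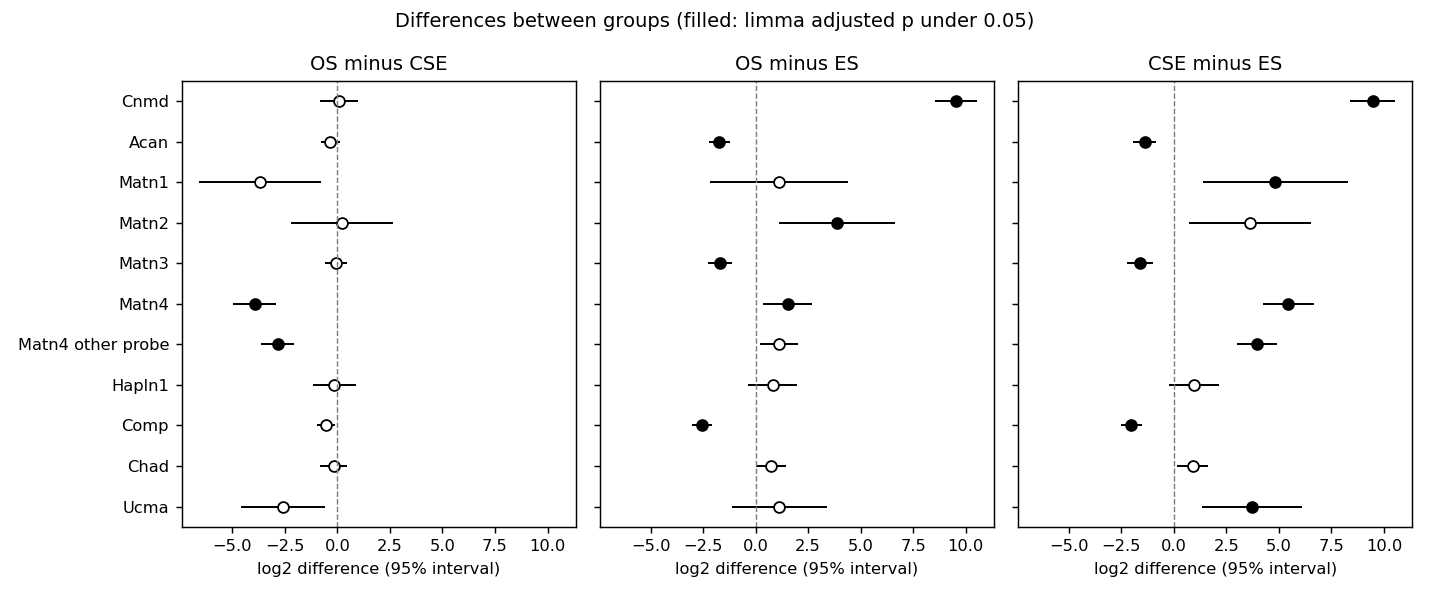
Log2 differences with 95% intervals (horizontal axis) of the 11 probes (vertical axis) for otospheres minus CSE, otospheres minus ESCs and CSE minus ESCs. Filled points passed limma's test at an adjusted p of 0.05. The 2 Matn4 probes are the only filled points between otospheres and CSE, and Cnmd lies beyond 9 in both comparisons with ESCs although its ESC signal is only a bound.

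Among the otosphere samples, the levels divided by slide for several of these genes. Cnmd, Matn1 and Ucma were brighter by more than 1 log2 unit in both slide 2 samples (OS4/OS5 and OS6) than in both slide 1 samples (OS1/OS2 and OS3), which 1.37% of all kept probes were. Matn2 and Hapln1 were dimmer by more than 1 log2 unit in both slide 2 samples, which 1.39% of all kept probes were. With 2 samples a slide no test was made, and slide and otosphere preparation cannot be told apart. For Matn1 the CSE array of slide 2 was at 11.69 and those of slide 1 at 11.62 and 11.31. The ESC arrays differed by 3.15 and came from different lines. The slide 2 CSE array moved with the otospheres for Ucma (11.91 against 11.23 and 10.67) and Matn2 (9.57 against 10.48 and 10.22). It moved the other way for Cnmd (14.41 against 14.64 and 14.90) and lay between for Hapln1 (6.13 against 6.39 and 5.74). The cause was not tested.

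Some marker lists of other cochlear cells also varied among the otosphere samples, and others varied little. All 5 hair cell markers (Atoh1, Pou4f3, Myo7a, Pvalb and Gfi1) were brighter in both slide 2 otosphere samples than in both slide 1 samples. Of all kept probes 27.8% were. For 4 of the 5 the gap was more than 1 log2 unit, beside 1.37% of all kept probes. The study had already reported Myo7a, Pvalb, Atoh1 and Pou4f3 as raised in OS4 to OS6 on these same arrays. Their place here is therefore no independent evidence of that pattern. Averaged over the list and set against each gene's mean over the 9 samples, hair cell markers were at -1.20, -1.75, -0.07 and 0.55 in the otosphere samples, 1.95 to 2.23 in CSE and -2.10 to -1.73 in ESCs. Among 6 markers of otic mesenchyme and spiral limbus, the same average was 0.41, 0.10, -0.03 and -3.01 in otospheres, 2.41 to 2.91 in CSE and -2.98 to -2.37 in ESCs. The OS6 sample, which had the lowest Matn2 and Hapln1 signals, was also the lowest otosphere sample for all 6 of these markers, for example Otor at 8.11 against 14.39 to 16.10 in the others. Other lists were lowest among otospheres in OS6 too, such as the osteoblast markers (1.18, 0.30, 0.25 and -1.40), the cartilage matrix proteases (0.97, 1.03, 0.19 and -0.43) and the Schwann cell markers (0.54, 0.10, -0.52 and -0.61). The supporting cell markers varied less, at -1.02, -1.12, -0.97 and -1.29 in the otosphere samples. Atoh1 and Gfi1 were not well above background in ESCs, nor were Pou3f4, Tbx18 and Otor. The part of these cells in the levels of Matn1, Ucma, Matn2 and Hapln1 was not tested.

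**Figure D3:**
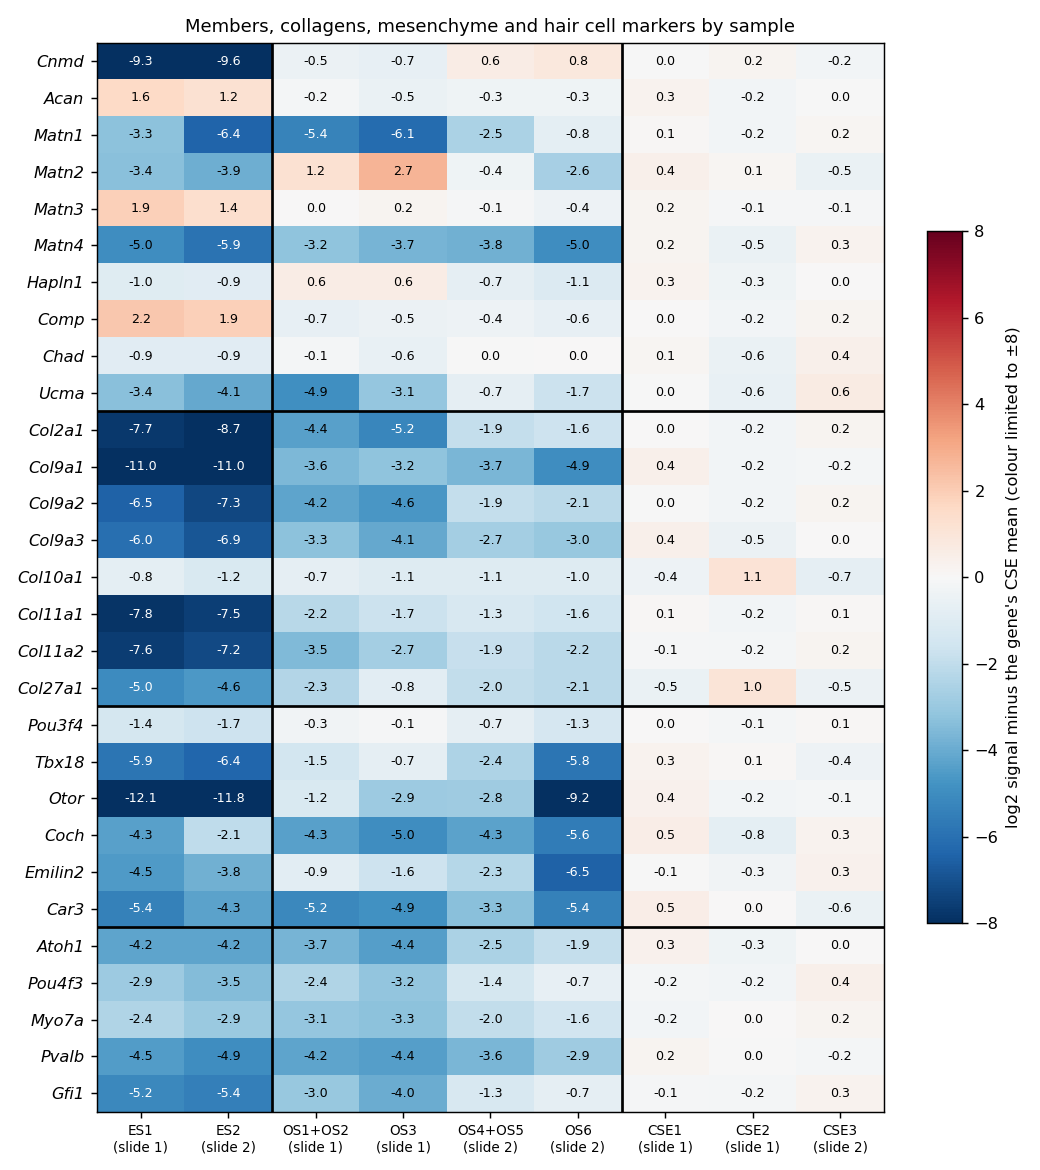
Log2 signal minus the gene's CSE mean (colour and printed value) for the 10 genes, the cartilage collagens, the otic mesenchyme markers and the hair cell markers (rows, from top to bottom) in each sample (columns). Matn1, Ucma, Col2a1 and the hair cell markers are closer to CSE in the OS4/OS5 and OS6 samples, and Matn2, Otor, Tbx18 and Emilin2 are lowest among otospheres in OS6.

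The other genes of cartilage matrix were taken from fixed lists. Over all kept probes, 6.19% were called lower and 4.84% higher in otospheres than in CSE. Relative to ESCs, 12.1% were called higher in otospheres and 13.2% in CSE. Of the 8 cartilage collagens, 7 were lower in otospheres than in CSE and none was higher, and 7 were higher than in ESCs in each cochlear group (limma, adjusted p of 0.05). Col9a1 was lower by a log2 difference of -3.86, Col9a3 by -3.28, Col9a2 by -3.21, Col11a2 by -2.58 and Col2a1, the main fibrillar collagen of cartilage, by -3.28. The exception in both cases was Col10a1, a collagen of hypertrophic cartilage, which was well above background on none of the otosphere arrays. The median over the 8 was -2.89. The study had listed Col9a1 as high in both cochlear groups from these same arrays, so its call against ESCs is no independent evidence. Col2a1 was at 13.48, 12.59, 15.94 and 16.19 in the otosphere samples, so it too was brighter on slide 2, and at 17.62 to 18.03 in CSE.

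Of the 11 relatives of the 10 genes with a kept probe, 5 were lower in otospheres than in CSE and 1 was higher. The lower ones were brevican (Bcan, a brain relative of aggrecan, -5.29), Chadl (-2.01, related to Chad), Thbs3 (-1.96, related to Comp), Tnmd (given above as a bound) and Hapln3 (-1.08, a link protein). Thbs1, a thrombospondin, was higher by 3.53 (limma, adjusted p = 0.00631), with 14.54, 13.58, 16.12 and 15.51 in otospheres and 11.32, 10.84 and 12.06 in CSE. Chadl was at 14.41 to 15.05 in otospheres and 16.49 to 16.89 in CSE. The median over the 11 was -1.12.

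Genes that build chondroitin sulphate chains and matrix proteases were called in both directions. Of 20 genes of chondroitin sulphate synthesis, 5 were lower in otospheres than in CSE (the chain-building Chsy1 by -2.21 and Xylt2 by -0.85, the sulphotransferases Chst3 by -2.18 and Chst15 by -1.33, and Papss2, which makes the sulphate donor, by -1.35) and 1 was higher (the sulphate transporter Slc26a2, by 1.55). The median over the 20 was -0.11. Of 9 cartilage matrix proteases, Adamts1 was higher by 1.47 and Adamts9 lower by -1.39. Of 6 hyaluronan synthases and receptors only Lyve1, a receptor of lymphatic endothelium, was called. Lyve1 was well above background on CSE arrays alone and at least 5.17-fold lower in otospheres than in CSE. It may have passed the filter on dim probes only through CSE, so its call is no support apart from that selection.

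None of the 6 chondrocyte transcription factors was called between otospheres and CSE by limma at an adjusted p of 0.05. Sox9, which drives cartilage genes, was at 9.58 to 10.88 in otospheres, 10.76 to 11.53 in CSE and 5.47 and 6.20 in ESCs, where it was not well above background. Sox5, Sox6 and Sox9 were called higher than in ESCs in both cochlear groups. Of 11 other cartilage markers, Cytl1 (-3.96), Frzb (-1.66) and Clec3a (at least 1.85-fold) were lower in otospheres than in CSE and none was higher. Clec3a was well above background on CSE arrays alone and may have passed the filter on dim probes only through them. Mia, a secreted protein of chondrocytes, was at 15.46 to 17.31 in otospheres and 17.17 to 18.21 in CSE, without passing (adjusted p = 0.0767).

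**Figure D4:**
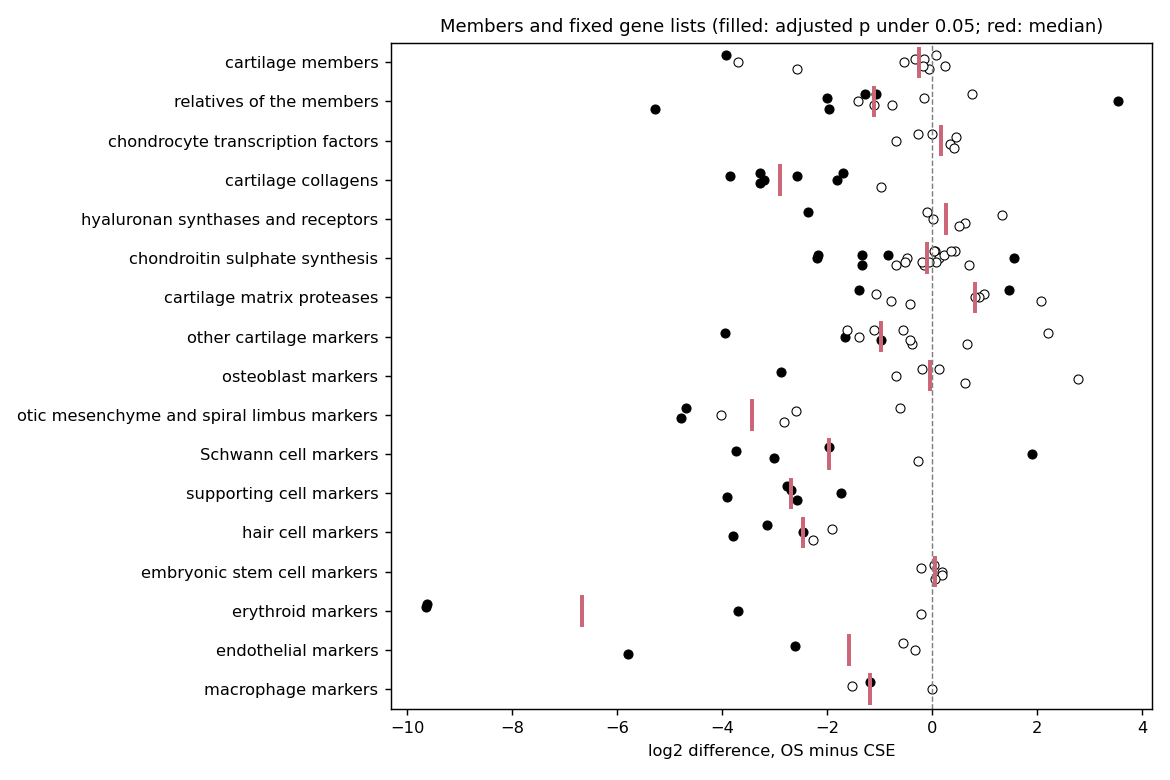
Log2 difference, otospheres minus CSE (horizontal axis), of each gene in the 10 members and the 16 fixed lists (vertical axis). Filled points passed limma's test at an adjusted p of 0.05 and red lines are medians. Of the 8 cartilage collagens, 7 are filled to the left of 0, beside 1 of the 10 other matrix genes.

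The remaining lists are markers of other cells. All 5 supporting cell markers were lower in otospheres than in CSE, as were 3 of 5 hair cell, 2 of 6 otic mesenchyme, 3 of 5 Schwann cell, 3 of 4 erythroid, 2 of 4 endothelial, 1 of 3 macrophage and 1 of 6 osteoblast markers. Only Mbp, among the Schwann cell markers, was higher. The supporting cell marker Prox1 and the erythroid markers Hbb-bt and Alas2, counted as lower, were well above background on CSE arrays alone. They may have passed the filter on dim probes only through CSE, so their calls are no support apart from that selection. Over all kept probes, 6.19% were lower and 4.84% higher. The study had listed Hba-a2, Cd93 and Atoh1 as high in CSE, and Sox2 and the Schwann cell marker Foxd3 as high in ESCs and CSE, from these same arrays. Their calls here are therefore no independent evidence. Of the erythroid genes, Hba-a2 had a log2 difference of -9.63, and Hbb-bt, well above background on none of the otosphere arrays and on all CSE arrays, was at least 734-fold lower in otospheres. The osteoblast gene Ibsp, with 8.35 to 9.60 in CSE and 5.08 to 7.56 in otospheres, had a log2 difference of -2.88. Among 5 ESC markers, 4 were called higher in ESCs than in both cochlear groups, Pou5f1 by more than 8 log2 units. The study had listed all 5 as high in ESCs with these same arrays, so these calls are no independent evidence either. The exception among the 5, the only kept probe named as Nanog, was at 8.26 and 8.50 in ESCs and 8.82 to 10.75 in otospheres. By contrast, the study listed Nanog among the genes high in ESCs and did not detect NANOG protein in otospheres. The name of the probe used here rests on its accession alone, was not checked against a sequence and may be wrong.

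For the genes past the F-test other than Matn3, the 3 genes with the most similar profile over the 9 samples were taken by Pearson's r. These 9 points fall into 3 groups that differ in many genes, so r is a description only. Cnmd was closest to Ptpre, Pgm5 and Itgb6 (r of 0.996, 0.996 and 0.995), and Matn4 to Heyl, Dkk3 and Gpr37 (0.994, 0.992 and 0.99). Acan was closest to Nol6, Was and Cwf19l1, and Comp to Cbs, Lrrc34 and Dnajc22 (0.991 to 0.994). For Ucma the r was lower, 0.986 for Msi1, 0.963 for Lrrc24 and 0.961 for Plaat1.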

How the data were processed

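Cy3-labelled RNA (50 or 100 ng) of 6 otosphere, 3 CSE and 2 ESC samples was measured on SurePrint arrays. The scanner files, as deposited, hold linear median intensity of each spot and its background, made by Feature Extraction 10.7.3.1. The authors also deposited log2 values, which they had background-corrected with limma, quantile-normalized and filtered, and these served as an alternative. Median rather than mean signals were used.

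With limma 3.58.1 in R 4.3.3, intensities were corrected (normexp, offset 16), converted to log2 and quantile-normalized over 11 arrays. Outlier-flagged spots were dropped and spots of a probe averaged. A probe stayed in if on 2 or more arrays it exceeded the array's 95th percentile of 308 negative controls by 10% (47997 of 55681 probes). Names came from RefSeq accessions for 26756 probes. A model of 3 group means gave pairwise tests and the F-test, adjusted by Benjamini-Hochberg over the kept probes (threshold 0.05). For a group whose arrays all missed the scanner's well-above-background flag, the fold is a bound, set against the dimmest flagged probe of each array or the probe's own signal if higher. The number of arrays limits the precision.

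All members were named by their brightest kept probe (a second probe where its call differed), the called genes of 16 fixed lists by size of difference, at most 5 a list, and the 3 most similar genes (not reported here for Matn3). Cartilage genes beyond 5 a list (Hapln3, Xylt2), hair cell markers below the threshold (Pou4f3, Gfi1) and Pou3f4, Pou5f1, Sox5, Sox6, Sox9, Col10a1, Mia, Otor, Tbx18, Emilin2 and Nanog were named after their values were seen. The members and lists were chosen with earlier results of these data known. Alternatives were the offset, scaling, deposited table, filter, samples, slide, probe rule and left-out replicates.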

Additional observations from a re-analysis of the deposited data

How the results depend on the processing

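Matn4 was lower in otospheres than in CSE in all 26 alternatives (log2 difference -4.69 to -3.31). The count of called members between otospheres and CSE, 1 in the main analysis, was 2 with the processed signal scaled to the 75th percentile (Comp added), with slide as a block (Ucma added) and on slide 1 alone (Matn1 added), 3 with every array as a separate sample (Matn1 and Comp added) and 1 to 2 when single replicates were left out. The same-numbered samples did not deviate together (r of -0.39 to 0.36 over 7 pairs, against -0.33 to 0.50 over 29 others), so the numbers were not used as pairs. This check cannot show a pairing under other numbers. OS1 and OS2 were closest to CSE1 (0.36 and 0.47), OS3 to CSE2 (0.50), OS4 and OS5 to CSE3 (0.29 and 0.31) and OS6 to CSE2 (0.13). Whether otosphere and CSE samples shared preparations was not tested, and the main model treats them as unpaired. With the replicate block, and every array a separate sample, the count was 3 (Matn1, Matn4 and Ucma), and the differences in otospheres from CSE were -0.56 for Cnmd and 0.60 for Hapln1, and from ESCs -0.71 for Matn1 and -1.02 for Ucma. Hapln1 was called against ESCs there in otospheres (1.55, limma, adjusted p = 0.00796) and CSE (0.95, adjusted p = 0.0372).

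The direction also turned, for differences that had not been called, between otospheres and CSE: Cnmd -0.00827 with slide as a block and -0.71 on slide 1, Hapln1 0.61 on slide 1, and Matn2 -0.99 on slide 2. Against ESCs on slide 1 alone, Matn1 was at -2.50 (limma, adjusted p = 0.0207) and Ucma at -0.61, and on slide 2 alone at 4.75 (adjusted p = 0.0133) and 2.88 (adjusted p = 0.0144). When single samples were left out, otospheres minus CSE ranged from -0.19 to 0.31 for Cnmd, -0.40 to 0.16 for Hapln1, -0.60 to 1.19 for Matn2 and -0.46 to 0.017 for Chad, and otospheres minus ESCs from -0.45 (without ES2) to 2.70 for Matn1. The causes were not tested. The call of Matn4 against ESCs was lost in 11 alternatives, among them without ES2 (adjusted p = 0.279), CSE1, CSE3, OS3, the OS1/OS2 sample or the OS4/OS5 sample. The 75th percentile scaling moved the median of all probes to -0.28 for otospheres minus ESCs and -0.25 for CSE minus ESCs, and array-median scaling to 0.12 for otospheres minus CSE and -0.20 for CSE minus ESCs. Relative to these medians no called direction of a member turned. Over all alternatives, 683 differences of single members stayed on their side of the threshold, 31 lost the call, 33 gained one and 27 turned. All 26 alternatives kept the calls of Cnmd, Acan and Comp against ESCs. Matn3 could not be fitted in the deposited table or with the filter on at least 3 arrays and kept its calls in the other 24. Within a slide, ESCs (and on slide 2 CSE) had 1 sample, assumed to vary like the other groups, although Matn1 differed by 3.15 between the ESC arrays. Matn3 was well above background on no otosphere or CSE array, so the sign of its fitted difference between them has no meaning: 0.12 with 75th percentile scaling, 0.0761 with array-median scaling (below the median of all probes there), 0.0945 with the replicate block, 0.0889 on slide 1, and -0.16 to 0.0551 when single samples were left out.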

Other observations

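Several matrix genes outside the 10 members divided by slide among the otosphere samples in the manner of Matn2 and Hapln1. By more than 1 log2 unit, both slide 2 samples were dimmer than both slide 1 samples for 3 of 11 relatives (Vcan, Thbs2 and Thbs4). The same held for 2 of 6 hyaluronan genes (Has2 and Hmmr) and 1 of 20 genes of chondroitin sulphate synthesis (Csgalnact1). It also held for 2 of 9 proteases (Adamts4 and Mmp13) and 1 of 11 other cartilage markers (Prg4, which encodes the lubricin of joint surfaces). Most genes of these lists did not divide this way, and 1.39% of all kept probes did. Prg4 was at 8.62, 9.07, 6.37 and 4.70 in the otosphere samples (OS1/OS2, OS3, OS4/OS5 and OS6) and well above background on no CSE or ESC array. Thbs4 was at 9.44, 9.51, 6.19 and 4.97, and Adamts4, an aggrecan-cutting protease, at 9.99, 10.48, 6.76 and 5.10. In the opposite direction, 2 of the 8 cartilage collagens, Col2a1 and Col9a2, were brighter by more than 1 log2 unit in both slide 2 samples. Of all kept probes 1.37% were. Col9a2 was at 12.60, 12.16, 14.91 and 14.66. The genes named here were chosen after their values were seen, and no test was made.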
